A study of Mus musculus with 8 samples.

Results

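The 9 genes described here belong to the let-7 axis, a set of classic targets and partners of the let-7 microRNAs. They are Hmga2, Trim71, Igf2bp1, Igf2bp2, Igf2bp3, Lin28a, Lin28b, Igf1r and Nras. Every probe set whose only platform gene symbol was one of these names was taken, which gave 27 of 45037 non-control probe sets and covered 8 of 18193 genes on the array. No probe set carried Igf2bp2 as its only symbol, and that gene was not analysed here. The arrays came from fully grown oocytes at the germinal vesicle stage, at which the oocyte nucleus is still intact and meiosis is paused. Females of a mixed 129/C57BL6 strain had been primed with eCG (equine chorionic gonadotropin, a hormone that makes follicles grow), and attached cumulus cells had been removed by pipetting. One group was wild type (4 mice) and the other was labelled Dicer knockout (4 mice), called knockout here after that label, with 20 oocytes and 1 array per mouse. The labels do not say which promoter or Cre line removed Dicer, which exons were lost, or how old the females were. The 4 arrays of each group are numbered 1 to 4 in deposition order, which is only a name.

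Dicer is the ribonuclease that cuts microRNAs out of their hairpin precursors, and mature microRNAs guide Argonaute proteins to matching mRNAs, whose translation or stability then drops. let-7 is among the most conserved microRNA families in animals and is known for holding back genes of the embryonic and fetal programme, Hmga2 being the textbook target. Lin28a and Lin28b bind the let-7 precursor and block its processing while being let-7 targets themselves, which makes a double-negative loop. In mouse oocytes, microRNAs are known to have little effect on most mRNAs, whereas the other products of Dicer, endogenous short interfering RNAs, are abundant. The comparison of genotypes asks whether the classic targets were higher in the group labelled Dicer knockout.

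The sequences that define the family are given here because targets are recognised through the seed, bases 2 to 8 of the mature microRNA, shown in capitals. They are written 5′ to 3′ from RefSeq (assembly GRCm38.p6).
mmu-let-7a-5p: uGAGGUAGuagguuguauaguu
mmu-let-7b-5p: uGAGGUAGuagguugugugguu
mmu-let-7c-5p: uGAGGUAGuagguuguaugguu
mmu-let-7e-5p: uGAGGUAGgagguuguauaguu
mmu-let-7g-5p: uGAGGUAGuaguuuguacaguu
mmu-let-7i-5p: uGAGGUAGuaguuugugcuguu
mmu-miR-98-5p: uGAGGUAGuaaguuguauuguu
mmu-miR-202-3p: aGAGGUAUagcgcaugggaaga
Of 1679 mature mouse microRNA names in the table, 11 carry the seed GAGGUAG, and it would pair with CUACCUC in an mRNA. Outside the seed the members differ little: let-7e and let-7c each differ from let-7a at 1 of 22 positions, let-7g and miR-98 at 2 and let-7i at 4. miR-202-3p and let-7j share only the first 6 of the 7 seed bases. The family is spread over many loci, so no single locus stands for it: the let-7a copy listed lies at chr13:48538239-48538260 on the minus strand, let-7g at chr9:106178846-106178867 on the plus strand and miR-98 at chrX:151913229-151913250 on the plus strand. The arrays measure mRNA, and mature let-7 itself was not measured.

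Values are log2 signals as the authors deposited them, and every adjusted p is limma's with Benjamini-Hochberg adjustment over all 45037 probe sets, called below 0.05. Array medians lay between 6.35 and 6.43, and arrays of the same genotype correlated across probe sets at 0.9915 to 0.9947, arrays of different genotypes at 0.9797 to 0.9865. The 21 oocyte markers measured had a median level of 13.53, and 2 were higher and 7 lower in knockout, 9.52% and 33.3% against 8.18% and 12.8% of all genes by brightest probe set (0 to 2 and 3 to 6 without single arrays, with 3 lower without knockout array 3). Dicer1 was higher on the arrays labelled knockout (13.13 ± 0.125 against 14.32 ± 0.0440, SD, n = 4 each, adjusted p = 2.12e-05), and since the deleted exons are not given this does not check the genotype. Females have no Y chromosome, so the 13 probe sets of 6 Y-linked genes show what an absent transcript reads: their means ran from 3.15 to 7.06, the next highest below Sry being 5.30. Their median was 3.81. The Sry probe set, 1450579_x_at, has the suffix of probes that can bind other transcripts, so the top of this range rests on 1 such probe set. Of the 27 probe sets described here, 8 had means under 7.06. They are 3 of Igf2bp1, the only probe set of Lin28b, 2 of Igf1r and 1 each of Hmga2 and Igf2bp3.

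The let-7 axis moved in both directions. Of the 27 probe sets, 8 were higher in knockout oocytes, 8 were lower and 11 were not called. Over the whole array 6.82% of probe sets were called higher, 9.31% lower and 16.1% in either direction, against 29.6% of these 27 in each direction. The 8 rises had differences between 1.14 and 1.81 on the log2 scale, the 3 of Igf2bp1 at signals within the range of absent transcripts. The 8 falls had differences between -0.31 and -0.98, those of Lin28b and of Igf2bp3 probe set 1453957_a_at at signals within that range. The rises belonged to Hmga2, Trim71 and Igf2bp1, and the falls to Lin28b, Igf1r, Igf2bp3 and Nras. The median difference of the 27 was -0.038, beside 0.016 for all probe sets. In 17 of the 27 the 4 values of one genotype lay entirely on one side of those of the other, against 21.2% of all probe sets.

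**Figure D1:**
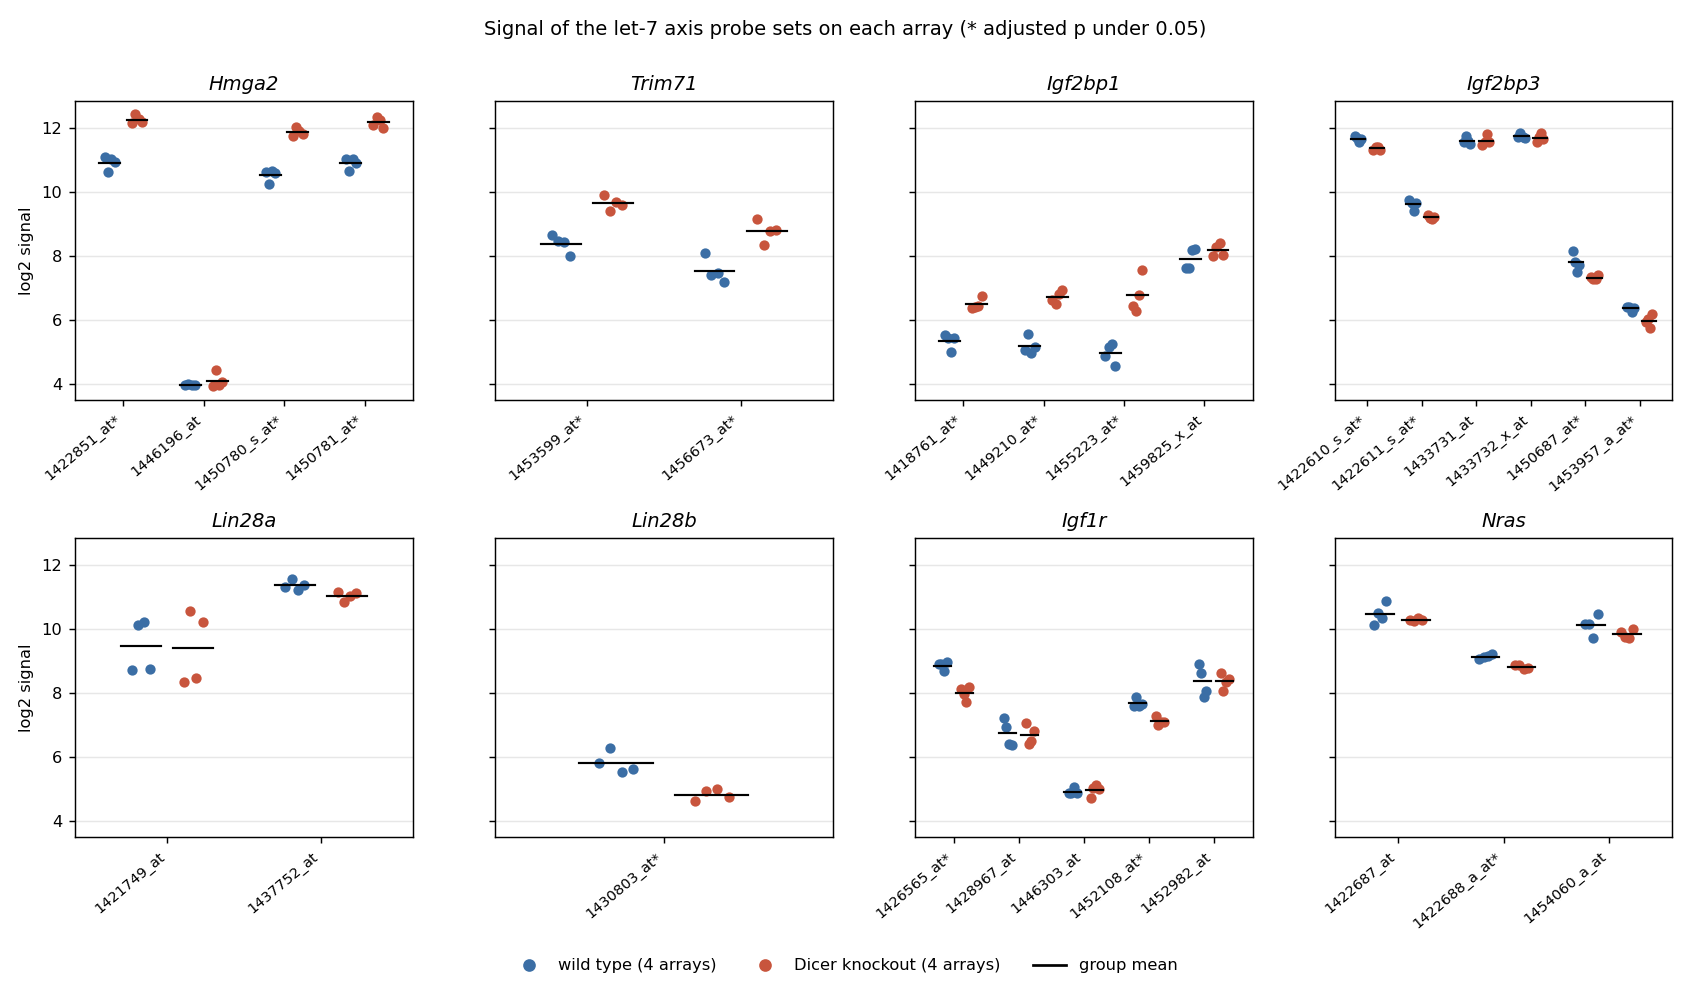
Log2 signal (vertical axis) of each of the 27 probe sets on each array, with 1 panel per gene. Points are single mice, blue for wild type (n = 4) and red for Dicer knockout (n = 4), black bars are group means, and an asterisk marks adjusted p under 0.05. The red points lie above the blue in 3 of 4 probe sets of Hmga2 and Igf2bp1 and in both of Trim71, and below them in the probe set of Lin28b.

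Hmga2 and Trim71 rose in every probe set but 1. Hmga2 encodes an architectural chromatin protein of fetal cells that binds AT-rich DNA. Its brightest probe set, 1422851_at, read 11.11, 10.62, 11.03 and 10.93 in wild type, against 12.16, 12.43, 12.28 and 12.19 in knockout. The lowest knockout value lay 1.05 above the highest wild-type value. The difference was 1.34 ± 0.114 (SE), or 2.54-fold (adjusted p = 7.9e-05). A further pair of Hmga2 probe sets moved by nearly the same amount. Probe set 1450780_s_at read 10.62, 10.24, 10.67 and 10.61 in wild type, against 11.75, 12.04, 11.91 and 11.81 in knockout (1.34 ± 0.110, adjusted p = 6.2e-05). Probe set 1450781_at read 11.03, 10.65, 11.03 and 10.91 against 12.10, 12.36, 12.26 and 12.01 (1.28 ± 0.111, adjusted p = 8.8e-05). In all 3, wild-type mouse 2 was the lowest and knockout mouse 2 the highest. The remaining probe set, 1446196_at, had means of 3.97 (wild type) and 4.10 (knockout), within the range of absent transcripts, and was not called (adjusted p = 0.518).

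The pseudogene Hmga2-ps1 has a probe set of its own and was looked at after its values were seen. It fell, from 8.98 ± 0.0641 to 7.88 ± 0.119 (log2 difference -1.10 ± 0.0795, adjusted p = 3.38e-05), opposite to the gene. The groups did not overlap.

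Trim71, the mouse form of the worm gene lin-41, encodes an RNA-binding ubiquitin ligase and is the founding let-7 target. Probe set 1453599_at read 8.64, 8.46, 8.44 and 7.99 in wild type, against 9.92, 9.42, 9.69 and 9.60 in knockout, 2.42-fold higher (1.28 ± 0.149, adjusted p = 0.000439). Probe set 1456673_at read 8.10, 7.39, 7.47 and 7.18 against 9.15, 8.35, 8.78 and 8.81 (1.24 ± 0.212, adjusted p = 0.00368). Wild-type mouse 1 and knockout mouse 1 were the highest of their groups in both probe sets, and the groups did not overlap in either. The first number of the title code, whose meaning the labels do not give, is shared by 1 mouse of each genotype for the numbers 24 and 27. With that number as a fixed block both Trim71 calls ended (adjusted p = 0.0528 and 0.193), the second with a difference of 0.83. Within number 24 and within number 27 knockout was higher than wild type for all 8 rises. The groups did not overlap in any of these 8, so that sign was fixed in advance and adds nothing to the calls.

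The Igf2bp proteins (also called IMPs) are RNA-binding proteins of fetal tissues and oocytes that hold mRNAs in granules and shield them, and the relatives measured here did not move together. Igf2bp1 rose in 3 of its 4 probe sets. Probe set 1418761_at read 5.53, 5.44, 5.0 and 5.44 in wild type, against 6.37, 6.39, 6.45 and 6.75 in knockout (1.14 ± 0.131, adjusted p = 0.000403). Probe set 1449210_at read 5.06, 5.56, 4.95 and 5.16 against 6.63, 6.51, 6.82 and 6.94 (1.55 ± 0.143, adjusted p = 0.000124). Probe set 1455223_at read 4.87, 5.14, 5.26 and 4.56 against 6.44, 6.29, 6.78 and 7.56 (1.81 ± 0.264, adjusted p = 0.0015). Knockout mouse 4 stood highest in all 3, and the groups did not overlap. The means of both genotypes (4.96 to 5.35 in wild type, 6.49 to 6.77 in knockout) lay under 7.06, the highest reading of an absent transcript, so no fold is given and these differences have no rank. The knockout means lay above 5.30, the next highest such reading. The brightest probe set, 1459825_x_at, whose suffix marks probes that can bind other transcripts, was not called: it read 7.62, 7.64, 8.20 and 8.23 in wild type, against 8.01, 8.28, 8.40 and 8.03 in knockout, a difference of 0.26 with a 95% interval of -0.11 to 0.63 (adjusted p = 0.350).

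Igf2bp3 fell in 4 of 6 probe sets, by small amounts. Probe set 1422611_s_at went from 9.62 ± 0.145 to 9.22 ± 0.0620 (-0.40, adjusted p = 0.0118) and 1422610_s_at from 11.67 ± 0.0831 to 11.37 ± 0.0521 (-0.31, adjusted p = 0.0161). Probe set 1450687_at went from 7.80 to 7.33 (-0.47, adjusted p = 0.0320) and 1453957_a_at from 6.36 to 5.97, within the range of absent transcripts (-0.38, adjusted p = 0.0255). The groups did not overlap in these 4. The calls of the last pair ended when single arrays were left out: that of 1450687_at without wild-type array 2 or 4 or any knockout array (adjusted p up to 0.0800), and that of 1453957_a_at without wild-type array 1, 2 or 4 or knockout array 1 or 3 (up to 0.0682). Probe sets 1433731_at (11.60 in each group, difference 0.0014, 95% interval -0.21 to 0.22) and 1433732_x_at (11.75 and 11.70, -0.051) were not called. With the title number as a fixed block all 4 falls lost their call (adjusted p = 0.0924 to 0.267), and that of 1422610_s_at also with cyclic loess scaling (0.0639). The differences with that block ran from -0.65 to -0.30, larger falls than in the main fit except for 1453957_a_at.

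**Figure D2:**
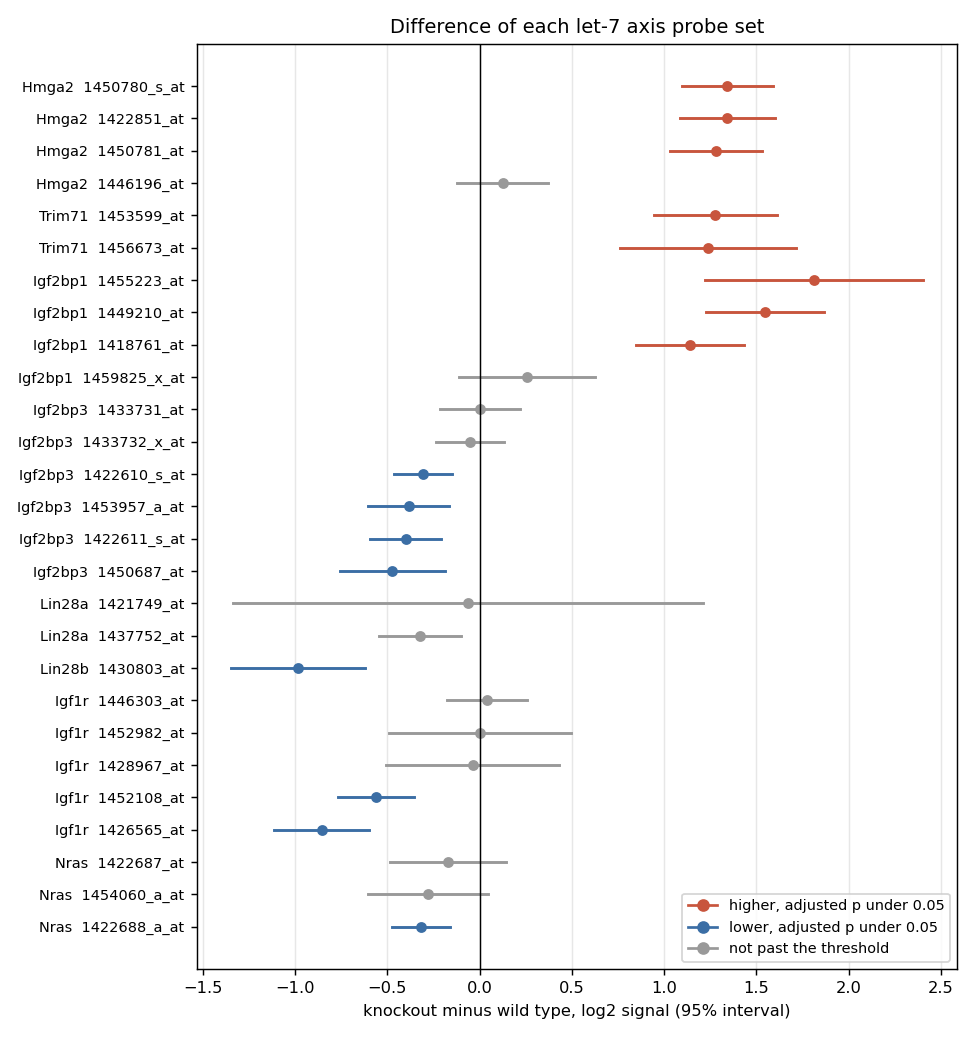
Knockout minus wild type in log2 signal (horizontal axis) for the 27 probe sets, grouped by gene, with bars for the 95% interval of limma's fit (4 arrays per genotype). Red marks rises and blue falls past adjusted p under 0.05, and grey the rest. Hmga2, Trim71 and Igf2bp1 hold all 8 rises with intervals wholly above 0, and 1 Lin28a probe set has an interval from -1.34 to 1.21.

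Lin28b, the let-7 precursor binder, was lower in knockout. Its only probe set, 1430803_at, read 5.83, 6.27, 5.51 and 5.63 in wild type, against 4.61, 4.94, 5.0 and 4.76 in knockout. Every knockout value lay under every wild-type value. The difference was -0.98 ± 0.161 (adjusted p = 0.00281), at signals inside the range of absent transcripts in both genotypes. The wild-type mean of 5.81 lay above 5.30, the highest Y-linked reading below Sry, and the knockout mean of 4.83 lay under it. Its call held without each array in turn and with the title number as a fixed block.

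Lin28a, the other precursor binder and an abundant oocyte RNA-binding protein, was not called by either probe set. Probe set 1437752_at read 11.31, 11.58, 11.21 and 11.37 in wild type, against 11.15, 10.86, 11.04 and 11.13 in knockout. The groups did not overlap, by a margin of 0.064, and the difference of -0.32 ± 0.0992 just missed the threshold (adjusted p = 0.0554). It passed without wild-type array 3 (adjusted p = 0.0443), with dim probe sets left out (0.0450), with median centring (0.0457) and with trend and robust variance settings (0.0451). The fall of Lin28b exceeded the difference of Lin28a by 0.66 on the log2 scale per array (pair difference -0.66, exact two-sided permutation p = 0.0286, adjusted p = 0.0429 over the 3 pairs of relatives computed), the smallest p that 70 arrangements allow. It was 0.0571 by the same exact permutation test without wild-type array 1 or 2. With the mean of both Lin28a probe sets the pair difference was -0.79 (exact permutation p = 0.0857).

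The other Lin28a probe set, 1421749_at, split the mice within each genotype. It read 8.71, 10.13, 10.24 and 8.76 in wild type, against 8.36, 10.56, 8.46 and 10.21 in knockout. The low values, 8.36 to 8.76, came from wild-type mice 1 and 4 and knockout mice 1 and 3, and the high values, 10.13 to 10.56, from the others, with a gap of 1.37 and nothing between. The genotype difference was -0.064 with a 95% interval of -1.34 to 1.21 (adjusted p = 0.960). Probe set 1437752_at of the same gene did not follow the split. All named probe sets were ranked by Pearson correlation with 1421749_at over the 8 arrays, as a description. Of the 10 closest, 5 belonged to 3 genes of chromosome 4, where Lin28a lies: Khdrbs1 (several probe sets), Ptp4a2 and Laptm5. These lie 53 to 69 protein-coding genes from Lin28a in RefSeq. The others belonged to Tube1, the closest of all, and 4933411G06Rik on chromosome 10, and to Steap3, Il17a and Crygd on chromosome 1. The probe sets of these others read within the range of absent transcripts on all arrays, that of Tube1 from 5.08 to 5.47. Of all genes on the array 6.02% lie on chromosome 4, a share of genes and not of probe sets. These genes were looked at after their values were seen. Khdrbs1 (1418629_a_at), an RNA-binding splicing regulator, read 10.40, 11.34, 11.00 and 10.19 in wild type, against 9.78, 11.28, 10.03 and 11.54 in knockout. Ptp4a2 (1435129_at), a phosphatase, read 11.84, 12.80, 12.73 and 12.32 against 11.92, 12.98, 12.06 and 12.74. The same 4 mice were the highest in both genes as in the Lin28a probe set. Both were picked by their correlation with that probe set, so this match is no separate result.

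**Figure D3:**
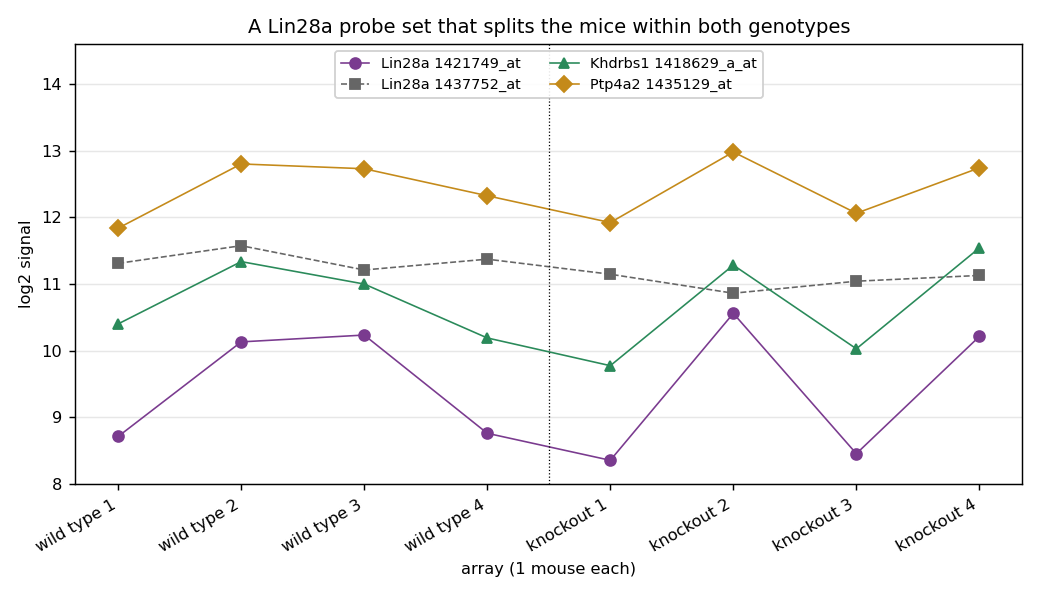
Log2 signal (vertical axis) on each of the 8 arrays (horizontal axis, 1 mouse each, the dotted line parting the genotypes) for both Lin28a probe sets, Khdrbs1 and Ptp4a2; lines only join points of a probe set. Lin28a 1421749_at is high (10.13 to 10.56) in 2 mice of each genotype and low (8.36 to 8.76) in the other 2. Khdrbs1 and Ptp4a2, picked by their correlation with that probe set, are highest in the same 4 mice.

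Igf1r and Nras, signalling genes of growth control, were lower where they were called. Igf1r encodes the receptor of insulin-like growth factor 1. Probe set 1426565_at read 8.90, 8.90, 8.68 and 8.96 in wild type, against 8.13, 7.97, 7.72 and 8.20 in knockout, a difference of -0.86 ± 0.114 (adjusted p = 0.000952). Probe set 1452108_at read 7.58, 7.89, 7.61 and 7.64 against 7.27, 7.02, 7.09 and 7.09 (-0.56 ± 0.0922, adjusted p = 0.00284). The genotypes did not overlap in either probe set. A further pair did not separate the genotypes but varied together over the mice: 1452982_at read 8.92, 8.62, 7.88 and 8.05 in wild type, against 8.61, 8.08, 8.34 and 8.45 in knockout, and 1428967_at read 7.21, 6.94, 6.40 and 6.39 against 7.06, 6.40, 6.51 and 6.83. Their differences were 0.0040 (95% interval -0.49 to 0.50) and -0.038. Over the 8 arrays these probe sets correlated at r = 0.954 with each other, and 1452982_at at 0.126 with 1426565_at. The fifth, 1446303_at, read 4.92 and 4.96, within the range of absent transcripts. Igf1r differed from its relative Insr, the insulin receptor, by -0.95 more in knockout than in wild type (exact two-sided permutation p = 0.0286, adjusted p = 0.0429 over 3 pairs), and by -0.41 with the mean of all probe sets. The brightest Insr probe set read 6.88 in wild type and 6.97 in knockout, within the range of absent transcripts. Its own difference was 0.092.

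Nras encodes a small GTPase of the Ras family. Probe set 1422688_a_at read 9.05, 9.12, 9.16 and 9.23 in wild type, against 8.87, 8.88, 8.76 and 8.78 in knockout, with no overlap (-0.32 ± 0.0696, adjusted p = 0.0131). The call ended when the arrays were quantile scaled again (adjusted p = 0.0510) and with the title number as a fixed block (0.327). Probe sets 1454060_a_at (10.13 and 9.85, -0.28, adjusted p = 0.242) and 1422687_at (10.46 and 10.29, -0.17, adjusted p = 0.473) were not called. The former passed without wild-type array 3 (adjusted p = 0.0408).

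Counted by gene, the answer depends on the probe set. Taking the brightest probe set of each gene, Hmga2 and Trim71 were higher and Lin28b and Igf1r lower, 2 and 2 of 8, against 8.18% and 12.8% of all genes (21.0% in either direction). Counting a gene if any probe set was called, Hmga2, Trim71 and Igf2bp1 were higher and Lin28b, Igf2bp3, Igf1r and Nras lower, 3 and 4 of 8, against 11.1% and 16.1% of all genes. No gene had calls in both directions. Igf2bp1 is the gene that changes between these counts on the higher side, because its brightest probe set was not called while 3 dimmer ones were. Those 3 lay within the range of absent transcripts, and the brightest has the suffix of probes that can bind other transcripts. The part of either in the missing call was not tested. The pair difference of Igf2bp3 and Igf2bp1 was -0.31 by brightest probe set and did not pass (exact permutation p = 0.257), and by the mean of all probe sets it was -1.46 (exact permutation p = 0.0286, adjusted p = 0.0429 over 3 pairs).

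Other genes of the axis mostly were not called. Of 38 other genes widely listed as let-7 targets, by brightest probe set 1 rose and 2 fell (2.63% and 5.26%, against 8.18% and 12.8% of all genes), with a median difference of -0.011 beside 0.0027 for all genes. Irs2, an adaptor of the insulin and Igf1 receptors, rose from 5.78 to 6.07 (adjusted p = 0.0337). Both readings lay within the range of absent transcripts, so no fold is given. The call of Irs2 ended without any of 5 single arrays (wild-type 1, 2 or 4, knockout 1 or 4). Hic2, a transcriptional repressor, fell by 0.55 (adjusted p = 0.000575), and Stard13 fell by 0.37 (adjusted p = 0.0309). Without wild-type array 1 or 4 or knockout array 1, 2 or 3, only 1 fall was called. By any probe set 5 were higher and 3 lower, against 11.1% and 16.1% of all genes. Of 20 genes that process, load or otherwise act on let-7 or its precursors, Dicer1 alone was called by brightest probe set. That is 5.0% higher and 0% lower, against 8.18% and 12.8% of all genes. The median difference of these 20 was -0.17. By any probe set 2 were higher (Dicer1 and Khsrp) and 2 lower (Drosha and Dgcr8), against 11.1% and 16.1% of all genes. Without wild-type array 3 or knockout array 1, 2 were called lower, and without array 2 of either genotype 1 was. Drosha, the nuclear ribonuclease that cuts the primary transcript, read 11.47 in wild type against 11.12 by its brightest probe set, which was not called (adjusted p = 0.142), while another of its probe sets was called lower.

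Around Igf1r and Nras, genes of the same pathways were called in each direction. Of 22 genes of the insulin-like growth factor axis, 3 rose and 4 fell (13.6% and 18.2%, against 8.18% and 12.8% of all genes, shares that are near each other). Shc1, an adaptor of the receptor, rose 1.38-fold (adjusted p = 0.00532), and Irs2 and Grb10 were the other rises. Without wild-type array 1 or 4 or knockout array 1 or 4 only 1 rise was called. Igf2r, the receptor that clears Igf2, fell by 0.77 (adjusted p = 0.000188), and Igfals, which carries Igf1 in blood, fell by 0.61 (adjusted p = 0.000543). Igfbp7 and Pik3r1 were the other falls. Of 16 genes of the Ras module, 4 rose and 1 fell (25.0% and 6.25%, against 8.18% and 12.8% of all genes). Spred1, an inhibitor of Ras signalling, rose 2.72-fold (10.61 ± 0.343 to 12.05 ± 0.127, adjusted p = 0.000298), and Map2k1, a kinase of the Ras cascade, rose 1.28-fold (adjusted p = 0.0131). Rras2, a Ras relative, fell by 0.60 (adjusted p = 0.0155), and 2 falls were called without knockout array 3 or 4. The other rises were Sos1 and Nf1.

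**Figure D4:**
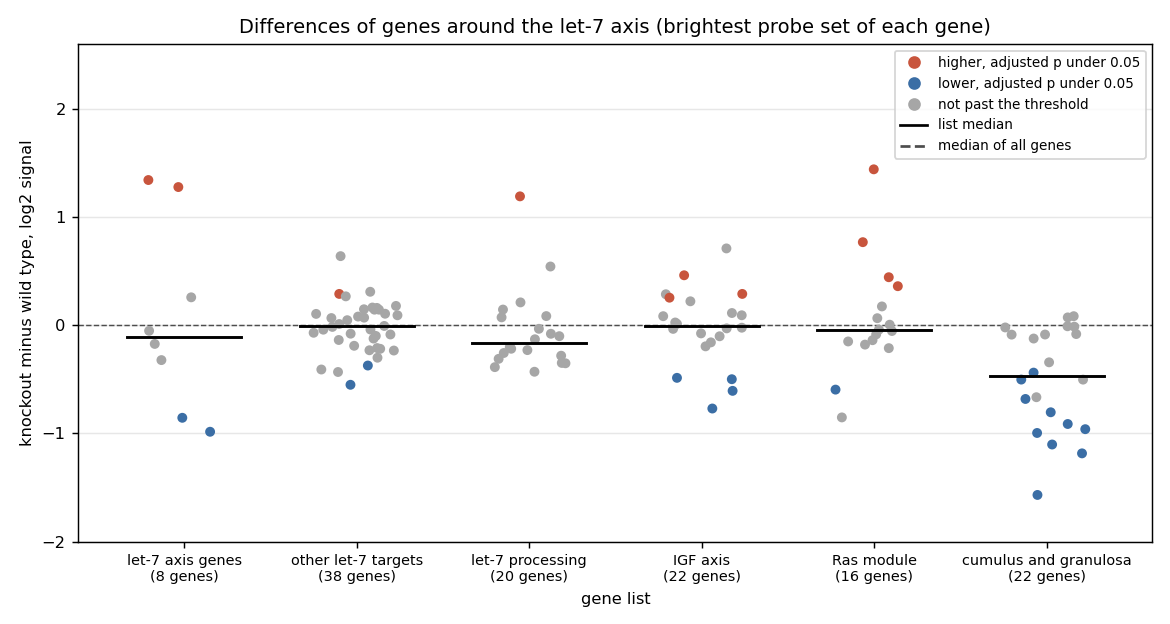
Knockout minus wild type in log2 signal (vertical axis) for genes of the let-7 axis and 5 lists around it (horizontal axis, with the number of genes measured), each gene by its brightest probe set. Red and blue points passed adjusted p under 0.05, black bars are list medians and the dashed line is the median of all genes. The cumulus and granulosa list has 10 blue points and no red ones.

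Markers of somatic follicle cells were measured in the same samples. Of 22 cumulus and granulosa genes 10 were lower in knockout by brightest probe set (45.5%, against 12.8% of all genes) and the other 12 were not called. The falls included Nr5a2 (10.67 to 10.24, adjusted p = 0.00863) and Greb1 (9.54 to 8.86, adjusted p = 0.0101). By any probe set the same 10 were lower and 1 was higher, against 16.1% and 11.1% of all genes. That 1 was Cyp11a1, which is also among the falls. Their summed linear signal ran from 10992 to 16928 on wild-type and from 7238 to 9521 on knockout arrays, and the dimmest, Tnfaip6, read 3.32 in wild type. The count of falls ran from 5 (without knockout array 3) to 11 (without wild-type array 3), and was 6 without wild-type array 1. Of 18 genes of vessel, blood, theca and stroma cells 3 were lower and 1 higher (16.7% and 5.56%, against 12.8% and 8.18% of all genes), with a summed signal of 2867 to 3538 in wild type and 2018 to 2265 in knockout. The macrophage genes among them went both ways: Mrc1 read 10.09 in wild type against 6.96 (adjusted p = 3.5e-05), Cd68 rose from 6.96 to 8.12 (adjusted p = 5.36e-05), and Lyz2, C1qa and Ptprc were not called. Without wild-type array 3, 2 of the 18 were higher. The direction of these falls is that of Lin28b, Igf1r, Igf2bp3 and Nras, and the part of somatic cells in those results was not tested. In bulk samples fewer cells of a type and less RNA per cell cannot be told apart.

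The genes whose pattern over the 8 arrays was most like Hmga2 (by Pearson's r of brightest probe sets, a value carried largely by the genotype difference) were Ttll1, a tubulin-modifying enzyme (r = 0.997, 3.61-fold higher), Nfx1, a DNA-binding protein (r = 0.994, 2.43-fold), and Rbms2, an RNA-binding protein (r = 0.993, 3.43-fold). Those most like Lin28b were Sec11a, a subunit of the signal peptidase (r = 0.990, log2 difference -0.16, not called), Popdc2 (r = 0.985, -0.85) and Mfsd4b4 (r = 0.983, -0.76).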

How the data were processed

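Each mouse gave RNA from 20 oocytes, which went through 2 rounds of amplification before an Affymetrix mouse array, per the labels' protocols. The authors deposited a log2 signal for every probe set, made with RMA and Partek per the submitters' processing notes, whose versions are not given in the sources used here. Low signals can be compressed by this method, so folds of dim probe sets may understate the RNA, which was not tested. Amplification can favour 3′ ends. The 3′ control probe sets of actin read above the 5′ ones by 2.32 ± 0.27 (wild type) and 2.14 ± 0.14 (knockout, log2, SD). For Gapdh the excess was 2.96 ± 0.08 and 2.82 ± 0.15. The part of this excess in differences between probe sets of a gene was not tested. Genotype came from the labels, and the mice are labelled as separate samples. No value was missing among 45101 probe sets.

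limma 3.58.1 in R 4.3.3 (lmFit, eBayes, default settings, no covariates) was fitted to the 45037 probe sets that are not controls, with knockout minus wild type as the contrast. Symbols came from the platform annotation: 34945 probe sets had 1 symbol, 932 several and 9160 none listed there. A gene stood by its probe set of highest mean over all 8 arrays. Every probe set of the 9 genes was named, with up to 2 genes per list and direction of lowest p, and the 3 genes most like Hmga2 and Lin28b. Relatives were compared by exact permutation over arrays; of 7 pairs listed, 3 had both genes measured. The fit was tested on simulated data first. The genes and lists were chosen with earlier results of these data known. The number of arrays limits the precision. The fit was repeated with dim probe sets left out (mean under 6), 3 other scalings, other variance models, array weights, the title number as a block, adjusted p under 0.01, other rules for a gene's probe set, and leaving out each array. The values within title numbers were added after seeing the data.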

Additional observations from a re-analysis of the deposited data

Results flagged for a closer look

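In 3 of 54 groups of 4 values, 1 array stood apart from the other 3 by more than Dixon's limit; chance gives about 1 in 20, or 2.7. In Hmga2 1450780_s_at the second wild-type array read 10.24, with the others at 10.61 to 10.67. In Igf2bp3 1433732_x_at the same array read 11.84, with the others at 11.70 to 11.73. In Igf1r 1446303_at the third wild-type array read 5.05, with the others at 4.87 to 4.89.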

How the results depend on the processing

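Of 16 called probe sets, 14 kept their call without each array in turn and 9 under every alternative that gave them a value, and none changed sign. The count of rises stayed at 8 without any single array and was 5 with dim probe sets left out, which removes the 3 rises of Igf2bp1. The count of falls ran from 6 to 10 without single arrays (10 without wild-type array 3) and was 3 with the title number as a fixed block and 3 at adjusted p under 0.01. By brightest probe set 1 gene was higher with the fixed block, 3 were higher by the mean of probe sets and 3 with shared-sequence probe sets left out, and 2 to 3 were lower without single arrays. The pair difference of Lin28b and Lin28a ran from -0.76 to -0.56 without single arrays (exact permutation p = 0.0571 without wild-type array 1 or 2) and was -0.79 by the mean of probe sets; that of Igf2bp3 and Igf2bp1 ran from -0.43 to -0.18 and was -1.46 by the mean; that of Igf1r and Insr ran from -1.03 to -0.81. Sign turned only in probe sets that were not called. Lin28a 1421749_at was 0.031 with cyclic loess and 0.96 with the fixed block, and ran from -0.45 to 0.28 without single arrays. Igf2bp3 1433731_at was -0.028 with median centring, -0.030 with array weights and -0.087 with the fixed block, and ran from -0.073 to 0.051; 1433732_x_at was 0.035 with cyclic loess. Igf1r 1428967_at was 0.016 with array weights and ran from -0.16 to 0.12, 1446303_at was -0.00054 with cyclic loess and ran from -0.012 to 0.12, and 1452982_at was -0.025 with median centring and -0.50 with the fixed block and ran from -0.16 to 0.19. The cause of these changes was not tested, except that the fixed block leaves 2 title numbers to carry the difference. Arrays sharing a title number correlated at -0.078 in the random-block fit.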
